A study of Mus musculus with 6 samples.

Results

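Integrins and laminins are the receptors and the ligands of the main system by which cells hold on to basement membrane and to each other. The genes were taken by symbol: 18 integrin alpha chains, 9 integrin beta chains and 11 laminin chains, which makes 38 of the 43432 genes in each table. Names of integrin-binding proteins, such as Itgb1bp1, and the integrin-like Itgbl1 were left out. The spinal cord of wildtype C57BL/6 mice was taken after a contusion of cervical level 5 on a single side, delivered at 50 kdyn by the Infinite Horizon device, with 4 h given as the time of collection (SCI, n = 3). The mice it was set against had laminectomy at that level without a contusion (sham, n = 3). The labels name no collection time for sham mice, no ages and no length of cord, and all mice carried the wildtype genotype.

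An integrin is a pair of an alpha and a beta chain, and the pair decides the ligand. Pairs with the beta chain of Itgb1 bind laminin, collagen or fibronectin, those with the alpha chain of Itgav bind ligands with an RGD motif such as vitronectin, and those with Itgb2 sit on leukocytes and bind ICAMs on endothelium. A laminin is a trimer of an alpha, a beta and a gamma chain that lines vessels, the glial boundary of the cord and the sheaths of peripheral nerve. In the central nervous system, endothelial basement membrane holds mainly the alpha chains of Lama4 and Lama5, whereas Lama1 and Lama2 belong to the parenchymal membrane laid down by meningeal cells and astrocytes.

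The libraries held 3407176 to 11543633 counts, sequenced from the 3′ ends of poly(A) transcripts, so that a count does not grow with transcript length. Levels below are CPM, counts set relative to the library total and scaled by edgeR's TMM factors, and 3 counts corresponded to 0.288 to 0.811 CPM. Transcripts of liver were present in every library. The 14 hepatocyte markers summed to 56863, 52573 and 56219.7 CPM in SCI libraries 1 to 3 and to 58638, 97119 and 41446 CPM in sham libraries 1 to 3, so sham 2 stood apart (difference of group means, exact permutation test, two-sided, p = 0.7, where 3 against 3 cannot go below 0.1). Markers that define cord tissue were at 5874 to 6162 CPM after SCI and 5317 to 7816 CPM after sham surgery for neurons and 5470.1 to 9168 CPM after SCI and 5903 to 8014 CPM after sham surgery for oligodendrocytes, as sums over 12 and 8 genes. In tissue of many cell types, fewer cells of a type and less RNA per cell cannot be told apart.

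At 4 h, no integrin or laminin gene passed the test. Of the 38 genes, 24 had enough counts to be tested, and edgeR's quasi-likelihood test called 0 higher and 0 lower at an adjusted p under 0.05. Among all 13560 genes tested, 0.929% were called, 0.885% higher and 0.0442% lower. At an unadjusted p under 0.05, 3 of the 24 were higher and 0 lower, against 4.27% and 3.11% of all genes (7.38% in either direction). Those were the laminin chain Lama5 and the integrin chains Itgav and Itga7. Lama5 entered the tested genes through its SCI libraries alone: 3 SCI libraries and 0 sham libraries reached the 1.42 CPM that the filter sets, so its difference between groups was built into its selection, and its place in these counts supports nothing. Every other tested member had a library of each group at that level. The DESeq2 Wald test and limma voom each called 0 of the 24, and each gave the same 3 genes at an unadjusted p under 0.05. Log2 fold changes of SCI over sham ran from -0.71 to 1.84 with a median of 0.07, beside a median of -0.00247 over all genes. They were positive in 13 and negative in 11 genes. In 4 of the 24, Itgav, Itga7, Lama4 and Lama5, every SCI library lay above every sham library, which was so for 7.73% of all genes. In 0 every SCI library lay below, against 5.94% (13.7% on either side).

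**Figure D1:**
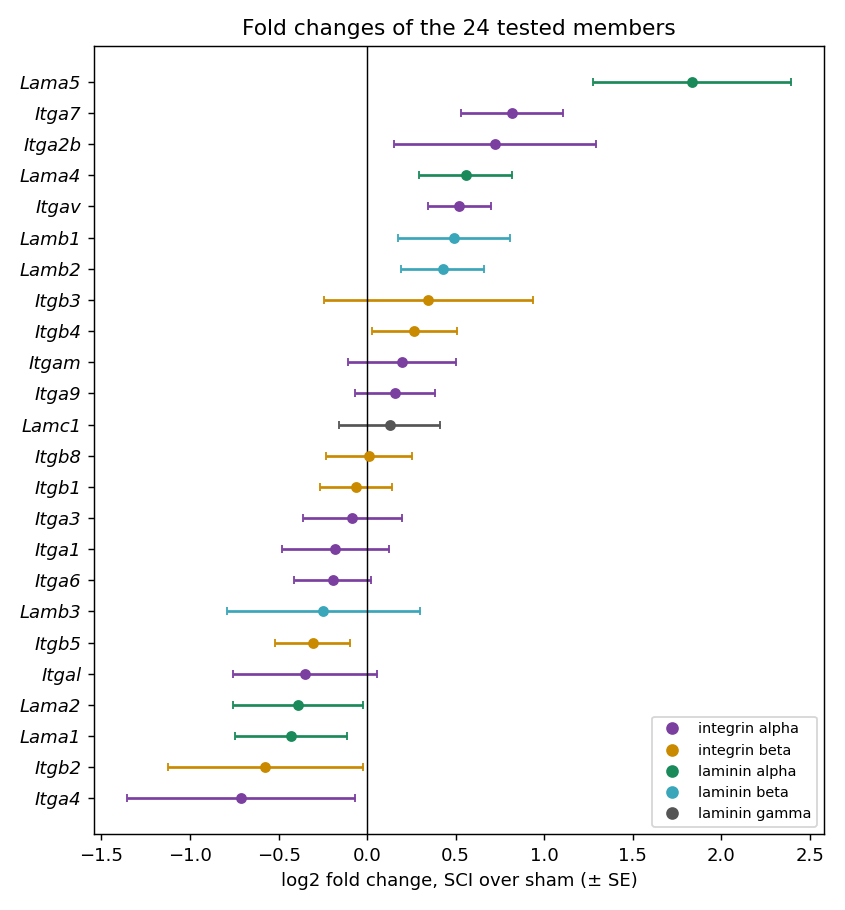
Log2 fold change of SCI over sham for each of the 24 tested genes with its standard error, ordered by size and coloured by chain family. Lama5 stands at the top with 1.84 ± 0.56 and Itga4 at the bottom with -0.71 ± 0.64, and the other 22 lie between -0.57 and 0.82.

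Among the alpha chains, Itgav was the most abundant. It encodes the alpha chain of the vitronectin receptors, lies on chromosome 2, 83724397 to 83806916 (GRCm38; ENSMUSG00000027087), and had 42.2, 39.0 and 36.8 CPM in SCI libraries 1 to 3, against 28.3, 24.4 and 30.0 CPM in sham libraries 1 to 3. All 3 SCI libraries were higher than all 3 sham libraries, with means of 39.3 ± 2.73 CPM after SCI and 27.6 ± 2.88 CPM after sham surgery (SD, n = 3 each). The log2 fold change of 0.52 ± 0.18 (SE) had an unadjusted edgeR p of 0.0111 and did not pass adjustment (adjusted p = 0.397). Of the CPM of all 18 alpha chains, Itgav made up 31.8 ± 2.56% after SCI and 25.8 ± 2.99% after sham surgery.

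Itga7, the alpha chain of a laminin receptor best known from skeletal muscle and also found on vessels and glia, lies on chromosome 10, 128933818 to 128958282 (ENSMUSG00000025348). It had 10.4, 10.1 and 12.5 CPM in SCI libraries 1 to 3, against 7.20, 7.11 and 3.52 CPM in sham libraries 1 to 3. The groups did not overlap, and sham 3 was the lowest library. Its log2 fold change was 0.82 ± 0.29 (SE; edgeR adjusted p = 0.422, unadjusted p = 0.0124). The last 1000 bases of the Itga7 gene overlap Mettl7b on the opposite strand, an abundant transcript at 246 to 334 CPM after SCI and 169 to 394 CPM after sham surgery. Mettl7b itself had a log2 fold change of 0.03 ± 0.27 (edgeR adjusted p = 0.993) and was highest in sham 2. The strand setting of the counting is not given in the sources used here, so reads of Itga7 and Mettl7b cannot be told apart.

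In the next most abundant alpha chains the groups differed by less than the libraries of a group did. Itga6, a laminin receptor chain of endothelium and neural progenitors, had 20.5, 19.0 and 19.97 CPM in SCI libraries 1 to 3, against 19.6, 19.8 and 29.7 CPM in sham libraries 1 to 3. Sham 3 alone stood above the rest, and the log2 fold change was -0.19 ± 0.22 (edgeR adjusted p = 0.925). Itga9, whose pair with the beta chain of Itgb1 binds tenascin-C and VCAM-1, had 18.7, 16.0 and 22.3 CPM in SCI libraries 1 to 3, against 16.4, 20.5 and 13.2 CPM in sham libraries 1 to 3, with a log2 fold change of 0.16 ± 0.23 (edgeR adjusted p = 0.944). Itgav was above Itga6 and Itga9 in every library, whereas the ranges of Itga6 and Itga9 overlapped and their order was not settled.

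Further down, Itga3, another laminin receptor chain, lay at 5.73 to 10.6 CPM after SCI and 7.30 to 9.51 CPM after sham surgery. Itga1, the collagen receptor chain of vessels and smooth muscle, lay at 4.75 to 7.51 CPM after SCI and 5.14 to 8.84 CPM after sham surgery. The log2 fold changes of Itga3 and Itga1 were -0.08 ± 0.28 and -0.18 ± 0.30 (edgeR adjusted p = 0.981 and 0.964). The gene Pelo lies on the same strand inside Itga1, so reads between Pelo and Itga1 are uncertain. Itga4, the alpha chain through which lymphocytes and monocytes bind VCAM-1, had 1, 18 and 11 counts in SCI libraries 1 to 3, against 21, 22 and 11 counts in sham libraries 1 to 3. SCI 1 had a count of 1 while the other libraries had 11 to 22, and the log2 fold change was -0.71 ± 0.64 (edgeR adjusted p = 0.897). The 3′ end of Itga4 overlaps Cerkl, that of Itga9 overlaps Gm2415 and that of Lama2 overlaps Gm48084, as that of Itgam does Gm49368, so reads of these members are uncertain too.

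Among the beta chains, Itgb1, the partner shared by most alpha chains, made up, of the CPM of all 9 beta chains, 61.8 ± 0.663% after SCI and 61.1 ± 5.73% after sham surgery. Itgb1 lies on chromosome 8, 128685654 to 128733200 (ENSMUSG00000025809) and had 93.6, 95.3 and 105 CPM in SCI libraries 1 to 3, against 102, 128 and 75.2 CPM in sham libraries 1 to 3, the highest level of any gene in these families in every library. All SCI libraries lay between the lowest and the highest sham library. The log2 fold change was -0.06 ± 0.20 (SE; edgeR adjusted p = 0.980). Its highest library was sham 2, which also had the most liver transcripts. With the hepatocyte level as a covariate the log2 fold change was 0.07 ± 0.13 (edgeR adjusted p = 0.869).

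None of the beta chains that pair with the chain of Itgav passed the test. Itgb5, a vitronectin receptor chain, had 24.4, 20.3 and 20.6 CPM in SCI libraries 1 to 3, against 25.1, 33.7 and 21.1 CPM in sham libraries 1 to 3. Sham 2 was the highest Itgb5 library and the groups overlapped, with a log2 fold change of -0.31 ± 0.21 (edgeR adjusted p = 0.854). Itgb8, the chain that with Itgav activates latent TGF-beta in neural tissue, had 17.8, 14.7 and 24.7 CPM in SCI libraries 1 to 3, against 17.4, 15.9 and 24.1 CPM in sham libraries 1 to 3, and a log2 fold change of 0.01 ± 0.24 (edgeR adjusted p = 0.996). The groups overlapped throughout, with SCI 3 and sham 3 the highest libraries of Itgb8. Itgb3, the partner of Itgav on endothelium and of Itga2b on platelets, had 12, 23 and 13 counts in SCI libraries 1 to 3, against 27, 15 and 1 counts in sham libraries 1 to 3, with a log2 fold change of 0.35 ± 0.59 (edgeR adjusted p = 0.964). Its groups overlapped. Itgb6, an epithelial chain, had no count in any library. Itgb4, the partner of Itga6 in laminin binding, lay at 13.4 to 19.0 CPM after SCI and 11.1 to 16.2 CPM after sham surgery with a log2 fold change of 0.27 ± 0.24 (edgeR adjusted p = 0.896). None of the 6 tested beta chains was called by edgeR, DESeq2 or limma voom, and 0 of them had an unadjusted p under 0.05 by edgeR.

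**Figure D2:**
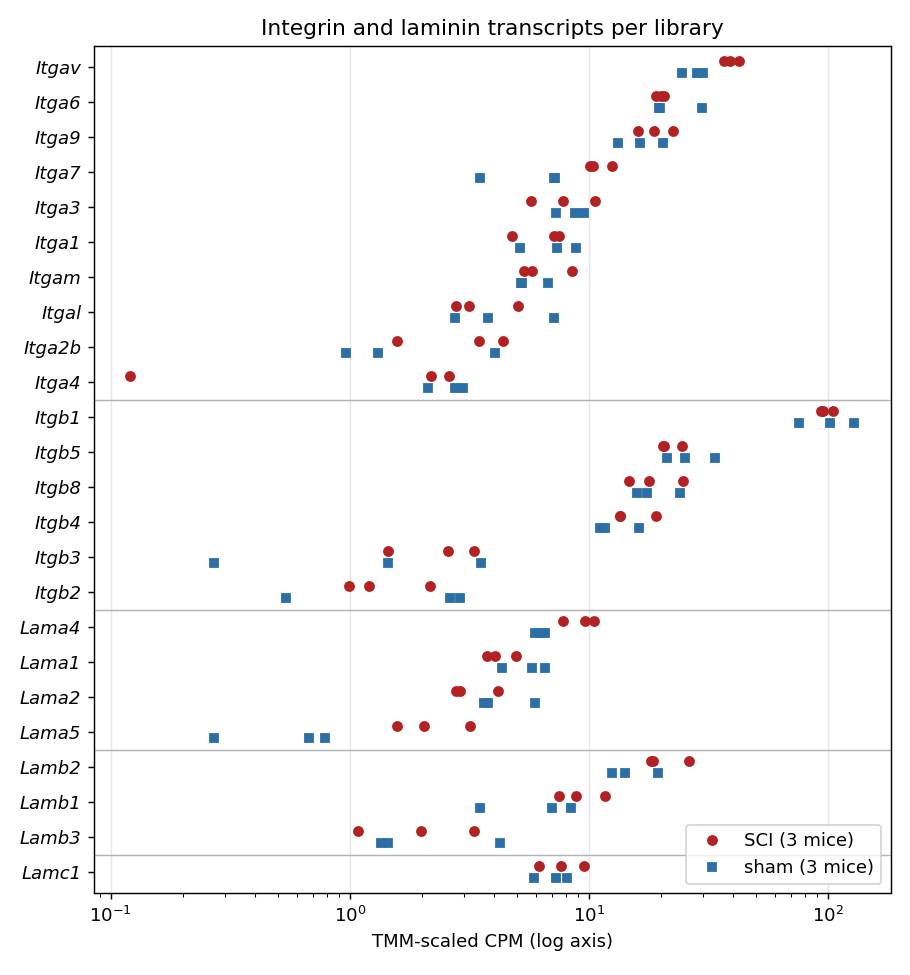
TMM-scaled CPM on a log axis for the 24 tested genes, with circles for the 3 SCI libraries above squares for the 3 sham libraries, grouped by chain family and ordered by mean level. Itgb1 lies at means of 97.9 and 102 CPM in SCI and sham, and the SCI circles clear the sham squares in Itgav, Itga7, Lama4 and Lama5.

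Integrins of blood cells were low, and none passed the test. Itgb2, the beta chain shared by the leukocyte integrins, had 10, 15 and 5 counts in SCI libraries 1 to 3, against 20, 30 and 2 counts in sham libraries 1 to 3 and a log2 fold change of -0.57 ± 0.55 (edgeR adjusted p = 0.910). Itgam, the CD11b chain of microglia, monocytes and neutrophils, had 5.79, 5.33 and 8.50 CPM in SCI libraries 1 to 3, against 5.24, 5.19 and 6.76 CPM in sham libraries 1 to 3. Its groups overlapped, with a log2 fold change of 0.20 ± 0.30 (edgeR adjusted p = 0.954), and Itgal, the CD11a chain of lymphocytes and neutrophils, lay at 2.77 to 5.04 CPM after SCI and 2.75 to 7.11 CPM after sham surgery with -0.35 ± 0.41 (log2, edgeR adjusted p = 0.926). Marker sums of neutrophils and platelets did not overlap between the groups. For the marker counts that follow, 4.27% of all genes tested were higher and 3.11% lower at an unadjusted edgeR p under 0.05. The 12 neutrophil markers summed to 57.5 to 80.3 CPM after SCI and 20.3 to 52.5 CPM after sham surgery, with 0 of 7 tested called by edgeR, 5 at an unadjusted p under 0.05, and S100a9 at 27.5 ± 3.58 CPM after SCI and 12.5 ± 7.83 CPM after sham surgery (log2 fold change 1.07 ± 0.32, edgeR adjusted p = 0.241). Mmp8, among the 5 neutrophil markers with an unadjusted p under 0.05, had 18, 13 and 20 counts in SCI libraries 1 to 3. Its sham libraries 1 to 3 had 7, 11 and 3 counts. Only SCI libraries of Mmp8 reached the 1.42 CPM that the filter sets, so its place among the 5 supports nothing. Ly6g, which defines neutrophils, had 5 counts over the SCI libraries and 4 over the sham libraries. The 11 microglial markers summed to 265 to 339 CPM after SCI and 276 to 325 CPM after sham surgery, with 4 of 11 lower at an unadjusted p under 0.05 and 1 called lower, the receptor gene P2ry12 (log2 fold change -1.91 ± 0.37, edgeR adjusted p = 0.0157). Gpr34, among the 4 lower microglial markers, had 9, 1 and 0 counts in SCI libraries 1 to 3. Its sham libraries 1 to 3 had 23, 18 and 7 counts. Only sham libraries of Gpr34 reached the 1.42 CPM that the filter sets, so its place among the 4 supports nothing. The part of these cell types in the values of Itgam and Itgb2 was not tested.

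Itga2b, the alpha chain of the platelet fibrinogen receptor, had 13, 24 and 22 counts in SCI libraries 1 to 3, against 10, 10 and 15 counts in sham libraries 1 to 3. Sham 3 lay inside the SCI range, and the log2 fold change was 0.72 ± 0.57 (edgeR adjusted p = 0.877). Platelet markers summed to 22.9 to 23.5 CPM after SCI and 8.38 to 14.1 CPM after sham surgery over 11 genes, of which Gp1ba, Gp6 and Tubb1 had no count in any library. The called member, 1 of 4 tested, was Pf4, a chemokine of platelets that border macrophages also make. Pf4 had 8.59 ± 1.18 CPM after SCI and 2.10 ± 0.755 CPM after sham surgery (log2 fold change 2.12 ± 0.34, edgeR adjusted p = 0.00396). Another large part of the sum was Clec1b, at 6.91 to 9.89 CPM after SCI and 2.16 to 8.84 CPM after sham surgery. Its groups overlapped, and sham 2 was its highest sham library (log2 fold change 0.59 ± 0.38, edgeR adjusted p = 0.825). The 7 erythroid markers summed to 1579.7 to 4270.4 CPM after SCI and 609 to 838 CPM after sham surgery, with all 5 tested called higher. The part of platelets and of blood in the counts of Itga2b was not tested. Lymphocyte markers summed to 4.75 to 6.87 CPM after SCI and 1.35 to 6.63 CPM after sham surgery, with Cd8a at no count, and border macrophage markers to 55.2 to 60.6 CPM after SCI and 42.5 to 89.8 CPM after sham surgery. In the monocyte list, Ccr2 and Ly6c2 had 19 and 15 counts over the SCI libraries, against 24 and 29 over the sham libraries, and the 8 genes summed to 399.6 to 607 CPM after SCI and 307 to 591 CPM after sham surgery, most of it F10, a coagulation factor that liver makes.

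Lama5, the laminin alpha chain of mature vessels, lies on chromosome 2, 180176373 to 180225859 (ENSMUSG00000015647). It had 2.05, 3.17 and 1.58 CPM in SCI libraries 1 to 3, against 0.786, 0.672 and 0.270 CPM in sham libraries 1 to 3, from 17, 22 and 8 counts in SCI libraries 1 to 3, against 6, 7 and 1 counts in sham libraries 1 to 3. The groups did not overlap, and the SCI level was highest in SCI 2. Means were 2.27 ± 0.815 CPM after SCI and 0.576 ± 0.271 CPM after sham surgery (SD, n = 3 each), and the log2 fold change of 1.84 ± 0.56 (SE) had an unadjusted edgeR p of 0.00500 that did not pass adjustment over all genes (adjusted p = 0.268). Since Lama5 passed the filter on its SCI libraries only, this p and fold change are given as a description. Without the filter its edgeR adjusted p was 0.232, and without SCI 1 the gene had too few counts to be tested. Lama4, the other endothelial alpha chain, lies on chromosome 10, 38965515 to 39110188 (ENSMUSG00000019846) and was the most abundant alpha chain by mean, with 9.65, 7.78 and 10.5 CPM in SCI libraries 1 to 3, against 6.29, 6.53 and 5.95 CPM in sham libraries 1 to 3. Every SCI library was above every sham library, with a log2 fold change of 0.56 ± 0.26 (SE; edgeR unadjusted p = 0.0502, adjusted p = 0.676).

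The alpha chains of the parenchymal membrane had negative log2 fold changes, and neither passed the test. Lama1 had 3.74, 4.03 and 4.94 CPM in SCI libraries 1 to 3, against 5.76, 6.53 and 4.33 CPM in sham libraries 1 to 3 (log2 fold change -0.43 ± 0.32, edgeR adjusted p = 0.863). SCI 3 lay inside the sham range. Lama2, whose loss causes a congenital muscular dystrophy, had 2.89, 4.18 and 2.77 CPM in SCI libraries 1 to 3, against 3.80, 3.65 and 5.95 CPM in sham libraries 1 to 3 (log2 fold change -0.39 ± 0.37, edgeR adjusted p = 0.906). SCI 2 lay inside the sham range. Markers of fibroblasts, which in the cord lie mainly in the meninges, had negative log2 fold changes too, in 5 of 7 genes with a median of -0.48. By edgeR 0 of them was called lower and 2 were lower at an unadjusted p under 0.05. These were Col1a1, at 14.3 to 17.2 CPM after SCI and 18.9 to 27.5 CPM after sham surgery with groups that did not overlap, and Col3a1, at 8.32 to 11.7 CPM after SCI and 8.38 to 27.3 CPM after sham surgery (log2 fold changes -0.58 ± 0.21 and -0.82 ± 0.34, edgeR adjusted p = 0.451 and 0.574). The fibroblast sum, most of it Dcn, was at 356 to 414 CPM after SCI and 277 to 511 CPM after sham surgery, and the part of these cells in the values of Lama1 and Lama2 was not tested. Within the CPM of the 5 alpha chains, Lama4 and Lama5 together made up 61.4, 56.7 and 59.2% in SCI libraries 1 to 3 and 41.2, 41.4 and 36.5% in sham libraries 1 to 3. Their sum over that of Lama1 and Lama2 was 1.76, 1.33 and 1.56 in SCI libraries 1 to 3 and 0.740, 0.708 and 0.605 in sham libraries 1 to 3, so this balance lay above 1 in each SCI library and under 1 in each sham library. The grouping is by the known site of these chains, but the ratio was chosen after the values of the 4 genes were seen. It is given without a test. The share and the ratio both include Lama5, which passed the filter on its SCI libraries only. In SCI 2, Lama4 without Lama5 was at 7.78 CPM, under the 8.21 CPM of Lama1 plus Lama2.

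**Figure D3:**
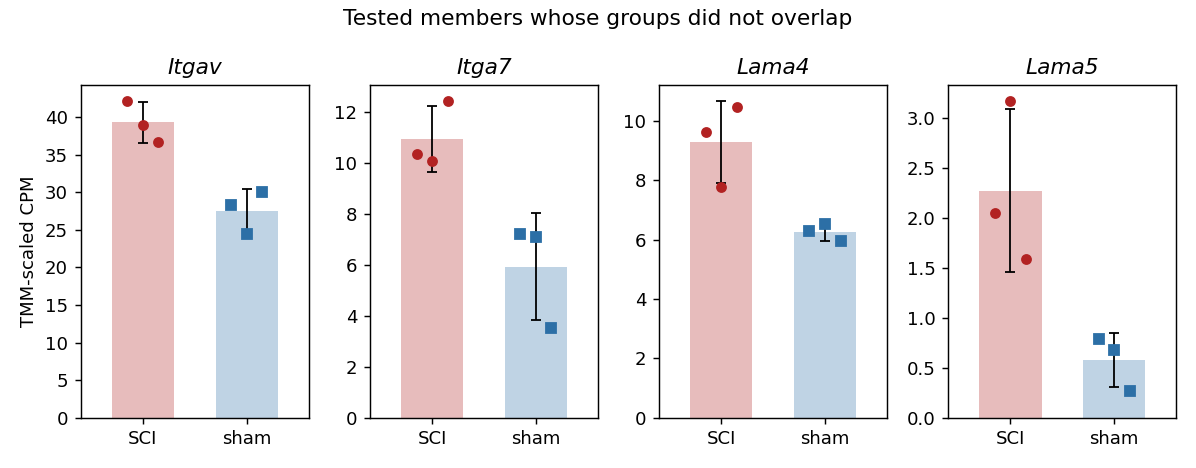
TMM-scaled CPM of Itgav, Itga7, Lama4 and Lama5, with points for the libraries, bars for the mean and lines for the standard deviation over 3 mice. All SCI points lie above all sham points, and the mean of Lama5 is 2.27 CPM after SCI and 0.576 CPM after sham surgery.

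None of the beta and gamma chains that complete these trimers passed the test. Lamb2, the beta chain of mature vessel and synaptic laminins, had 18.2, 18.4 and 26.3 CPM in SCI libraries 1 to 3, against 19.5, 14.1 and 12.4 CPM in sham libraries 1 to 3. Sham 1 lay above SCI 1 and SCI 2, and the log2 fold change was 0.43 ± 0.24 (edgeR adjusted p = 0.754). Lamb1, the more widely used beta chain, had 7.48, 8.78 and 11.7 CPM in SCI libraries 1 to 3, against 8.38, 7.01 and 3.52 CPM in sham libraries 1 to 3, with a log2 fold change of 0.49 ± 0.32 (edgeR adjusted p = 0.824) and sham 3 the lowest library. Lamc1, the gamma chain of nearly all vascular and glial laminins, had 6.15, 7.63 and 9.49 CPM in SCI libraries 1 to 3, against 5.89, 7.30 and 8.11 CPM in sham libraries 1 to 3, with a log2 fold change of 0.13 ± 0.28 (edgeR adjusted p = 0.972).

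Lamb3, the epithelial beta chain, was highest in sham 2, at 1.09 to 3.31 CPM after SCI and 1.35 to 4.23 CPM after sham surgery (log2 fold change -0.25 ± 0.54, edgeR adjusted p = 0.972). Its gene overlaps Hsd11b1 on the opposite strand, an abundant liver enzyme gene at 389 to 434 CPM after SCI and 308 to 670.3 CPM after sham surgery that was also highest in sham 2. The part of Hsd11b1 in the counts of Lamb3 was not tested. Summed over all 11 chains, laminins were at 61.3 ± 9.90 CPM after SCI and 50.0 ± 4.39 CPM after sham surgery (SD, n = 3 each), and integrins over 27 genes at 282 ± 10.7 CPM after SCI and 272 ± 29.0 CPM after sham surgery.

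Promoters are given for the members with an unadjusted p under 0.05 that RefSeq's GRCm38.p6 table holds, Itgav and Lama5, and for Itgb1 as the most abundant member. Each runs from 250 bases before to 50 bases after the start of transcription, on the gene's own strand, and capitals mark matches to GC box letters (GGGCGG, either strand). They are Itgav at chr2:83724147-83724446 (plus strand), Lama5 at chr2:180225810-180226109 (minus strand) and Itgb1 at chr8:128685404-128685703 (plus strand).
Itgav: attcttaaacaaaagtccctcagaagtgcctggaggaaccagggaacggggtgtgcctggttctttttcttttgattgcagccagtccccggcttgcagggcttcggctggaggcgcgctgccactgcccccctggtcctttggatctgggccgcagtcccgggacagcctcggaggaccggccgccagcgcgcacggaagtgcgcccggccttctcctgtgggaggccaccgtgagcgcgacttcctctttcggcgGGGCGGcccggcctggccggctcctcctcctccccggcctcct
Lama5: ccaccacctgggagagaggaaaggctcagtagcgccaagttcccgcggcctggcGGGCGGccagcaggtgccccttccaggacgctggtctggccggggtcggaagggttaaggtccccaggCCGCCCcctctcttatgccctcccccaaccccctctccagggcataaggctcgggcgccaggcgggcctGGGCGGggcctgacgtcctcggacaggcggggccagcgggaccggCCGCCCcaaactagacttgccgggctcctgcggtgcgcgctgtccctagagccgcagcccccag
Itgb1: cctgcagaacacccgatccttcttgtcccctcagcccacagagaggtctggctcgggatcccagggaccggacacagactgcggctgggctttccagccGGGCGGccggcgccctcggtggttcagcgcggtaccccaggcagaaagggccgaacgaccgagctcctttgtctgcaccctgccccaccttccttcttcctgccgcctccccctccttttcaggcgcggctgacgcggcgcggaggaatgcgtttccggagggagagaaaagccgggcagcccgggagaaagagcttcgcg

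The GC box letters occurred 1 time in the Itgav window, 4 times in that of Lama5 and 1 time in that of Itgb1. They were in 11 of the 24 members with a promoter in the table, and in 35.7% of all 32851 promoters. None of the 3 windows held the letters of AP-1 (TGANTCA), the cyclic AMP response element (TGACGTCA) or the TATA box (TATAAA) on either strand. These were in 3, 0 and 0 of the 24 members, listed in that order, and in 7.81%, 1.79% and 13.6% of all promoters. The members with the AP-1 letters were Itga3, Itga9 and Itgax. Members were counted by gene, with a match in any of its promoters, whereas the shares are of single promoters, so the units differ. The motifs were chosen after the expression values were seen.

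The other 14 members had too few counts for the test, at most 45 over the 6 libraries, and are described by their counts. They included the alpha chains Itga2, Itga5, Itga8, Itga10, Itga11, Itgad, Itgae and Itgax, the beta chains Itgb2l, Itgb6 and Itgb7, and the laminin chains Lama3 and Lamc3. Counts were more numerous over the SCI libraries in 8 of them and over the sham libraries in 5. Itgad is a leukocyte chain in a row with Itgam and Itgax at chromosome 7, 128062640 to 128223816. It had 8, 16 and 4 counts in SCI libraries 1 to 3, against 6, 3 and 1 counts in sham libraries 1 to 3. Its levels were 0.791 to 2.304 CPM after SCI and 0.270 to 0.786 CPM after sham surgery. These ranges were apart by less than 1 count, which in SCI 3, the lowest SCI library, was worth 0.198 CPM. Among all genes tested, 7.73% had every SCI library above every sham library. The ratio of summed counts per total counts was 3.14 with a 95% counting interval of 1.48 to 7.25, which covers counting error only. When every gene with a count was tested, its edgeR adjusted p was 0.719.

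Itga2, a collagen receptor chain of platelets and epithelium, had 1, 6 and 0 counts in SCI libraries 1 to 3, against 0, 0 and 0 counts in sham libraries 1 to 3. Of the 7 counts 6 came from SCI 2, and the 95% counting interval of the SCI over sham ratio began at 1.62, for counting error only. In the test without a filter its unadjusted edgeR p was 0.0276 and its adjusted p 0.572. Itga5, the alpha chain of the main fibronectin receptor, had 7, 5 and 6 counts in SCI libraries 1 to 3, against 1, 8 and 1 counts in sham libraries 1 to 3, a ratio of 2.02 with a 95% counting interval of 0.884 to 4.90, so a difference was not detectable at this depth. Itgax, the CD11c chain of dendritic cells and activated microglia, had 11 counts over the SCI libraries and 6 over the sham libraries. Lama3, an alpha chain of epithelial laminin, had 10 over the SCI libraries and 6 over the sham libraries. Lamc3, a gamma chain, had 19 over the SCI libraries and 26 over the sham libraries, and Itga10, a collagen receptor chain of cartilage, 24 over the SCI libraries and 16 over the sham libraries. Itga8, a chain of smooth muscle and mesenchyme, had 9 over the SCI libraries and 18 over the sham libraries, and Itgb7, a lymphocyte chain, 8 over the SCI libraries and 15 over the sham libraries. Itga11, a collagen receptor chain of fibroblasts, had 8 over the SCI libraries and 6 over the sham libraries. Itgae and Itgb2l had 0 and 0 counts over the SCI libraries, against 1 and 2 over the sham libraries.

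Genes that work with integrins and laminins were taken from 5 lists. By edgeR, by the DESeq2 Wald test and by limma voom, 2 of the 79 tested were called, both higher. Among all genes tested, edgeR called 0.885% higher and 0.0442% lower. Of the integrin ligands in matrix and plasma, 1 of 17 tested was called higher and 0 lower, with a median log2 fold change of -0.01. It was Thbs1, thrombospondin-1, a matrix and platelet protein bound by integrins with the Itgav chain, which rose by 2.23 ± 0.41 (log2, SE; edgeR adjusted p = 0.0117). Thbs1 had 5.67, 4.32 and 7.71 CPM in SCI libraries 1 to 3, against 1.31, 0.960 and 1.62 CPM in sham libraries 1 to 3, and lost its call without SCI 1 (edgeR adjusted p = 0.0516), SCI 3 (0.0817) or sham 1 (0.0763). Tnc, tenascin-C, the ligand of Itga9, came next with 2.65, 5.33 and 4.15 CPM in SCI libraries 1 to 3, against 1.96, 1.15 and 1.62 CPM in sham libraries 1 to 3. Its log2 fold change of 1.36 ± 0.44 was not called (edgeR adjusted p = 0.329). In this list Fn1, Vtn and the 3 fibrinogen genes are also products of liver, and Fn1, fibronectin, lay at 298 to 337 CPM after SCI and 207 to 498 CPM after sham surgery.

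Counter-receptors on cells had 0 of 8 called in either direction by edgeR, with a median log2 fold change of 0.15. At an unadjusted p under 0.05, 3 of the 8 were higher, against 4.27% of all genes tested. The smallest edgeR adjusted p, 0.0542, was that of Icam1, the endothelial ligand of leukocyte integrins, with 16.2, 17.6 and 11.3 CPM in SCI libraries 1 to 3, against 2.49, 7.01 and 0.541 CPM in sham libraries 1 to 3. Sham 2 was the highest sham library, and the log2 fold change was 1.97 ± 0.45. Without sham 2 it was 3.07 ± 0.41 (edgeR adjusted p = 0.000268). Icam1 was also called without sham 3 (0.0177), with no filter (2.84e-08), with total counts (0.0294), with the hepatocyte covariate (2.68e-05) and with the replicate block (0.0455), all edgeR adjusted p, but not by the DESeq2 Wald test (adjusted p = 0.447) or limma voom (0.0545). Vcam1, the ligand of the Itga4 and Itga9 pairs, had 37.7, 31.4 and 38.6 CPM in SCI libraries 1 to 3, against 29.2, 27.2 and 21.1 CPM in sham libraries 1 to 3 (log2 fold change 0.46 ± 0.19, edgeR adjusted p = 0.576), and Cdh1, the E-cadherin bound by the Itgae pair, 0.85 ± 0.28 (edgeR adjusted p = 0.346).

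Adaptors that join integrin tails to actin had 0 of 27 called higher and 0 lower by edgeR, with a median log2 fold change of -0.02. At an unadjusted p under 0.05, 3 of the 27 were higher, against 4.27% of all genes tested. The smallest p values were those of Zyx, zyxin, at 31.2, 34.6 and 40.5 CPM in SCI libraries 1 to 3, against 21.1, 21.6 and 20.8 CPM in sham libraries 1 to 3, and of Flna, filamin A, at 16.4, 18.4 and 20.8 CPM in SCI libraries 1 to 3, against 11.5, 11.1 and 10.3 CPM in sham libraries 1 to 3. Their log2 fold changes were 0.74 ± 0.19 and 0.74 ± 0.21 (edgeR unadjusted p = 0.00132 and 0.00326, adjusted p = 0.115 and 0.215). Of the other laminin receptors and the enzymes that glycosylate dystroglycan, 0 of 17 was called higher and 0 lower by edgeR, 0 had an unadjusted p under 0.05, and there were 4 positive log2 fold changes with a median of -0.12. Sgce and Pomt2 had the smallest p there, with log2 fold changes of -0.97 ± 0.48 and -0.57 ± 0.37 (edgeR adjusted p = 0.710 and 0.824).

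Among the basement membrane partners of laminin, 1 of 10 was called higher and 0 lower, with a median log2 fold change of 0.07. Col4a2, an alpha chain of the collagen IV network, rose by 0.98 ± 0.21 (log2, SE; edgeR adjusted p = 0.0302), with 21.2, 26.3 and 22.9 CPM in SCI libraries 1 to 3, against 12.05, 11.1 and 12.7 CPM in sham libraries 1 to 3. The SCI and sham libraries of Col4a2 did not overlap. Its call was lost with total counts (edgeR adjusted p = 0.0672), in the fit blocked by replicate number (0.164) and without SCI 1 (0.0887), SCI 2 (0.221), SCI 3 (0.0824), sham 1 (0.196) or sham 2 (0.0638). Col4a1, its partner chain, had 23.5, 19.4 and 32.2 CPM in SCI libraries 1 to 3, against 14.8, 14.3 and 12.7 CPM in sham libraries 1 to 3, with a log2 fold change of 0.83 ± 0.23 (edgeR adjusted p = 0.179). Markers of endothelium, which makes much of this membrane, summed over 10 genes to 321 to 369 CPM after SCI and 279 to 361 CPM after sham surgery. By edgeR 0 of the 10 was called. At an unadjusted p under 0.05, 2 were higher and 0 lower, against 4.27% and 3.11% of all genes tested. Log2 fold changes were positive in 5 of the 10, with a median of 0.01. Markers of mural cells summed to 82.4 to 102 CPM after SCI and 87.7 to 114 CPM after sham surgery and of astrocytes to 2393 to 2474 CPM after SCI and 1975 to 2759 CPM after sham surgery. Those of Schwann cells were at 58.5 to 69.0 CPM after SCI and 19.5 to 79.5 CPM after sham surgery, with Pmp2 at no count. Those of ependyma were at 446 to 676 CPM after SCI and 360.2 to 689 CPM after sham surgery. Nearly all of the ependymal sum was Rarres2, at 438 to 673 CPM after SCI and 354 to 681 CPM after sham surgery. Like the hepatocyte sum, Rarres2 was highest in sham 2 and lowest in sham 3, and the part of liver in it was not tested.

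**Figure D4:**
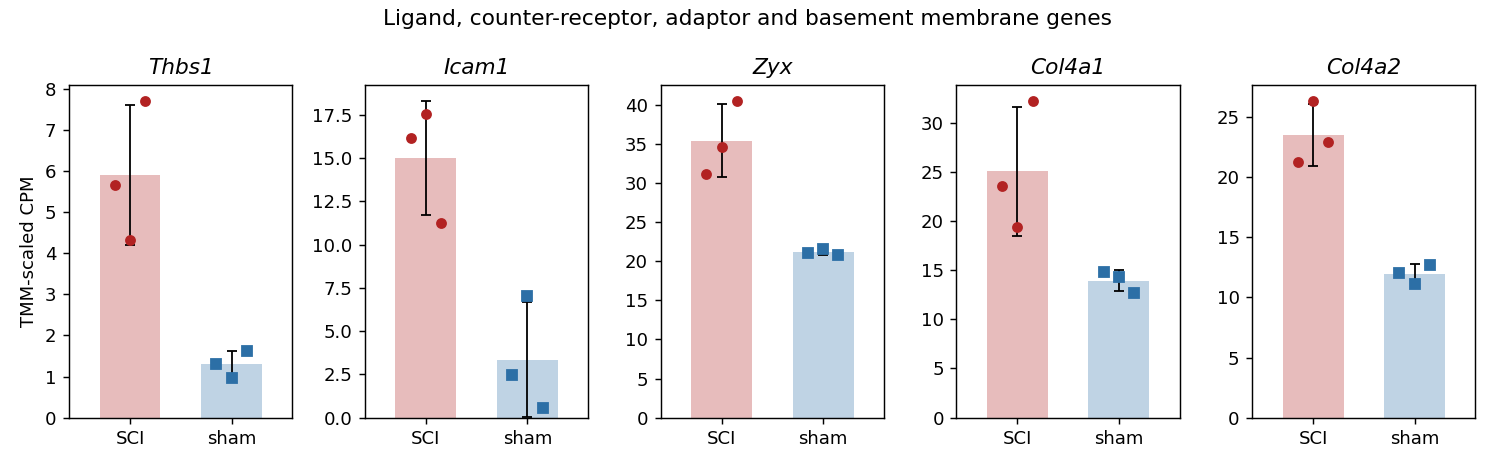
TMM-scaled CPM of Thbs1, Icam1, Zyx, Col4a1 and Col4a2, with points for the libraries, bars for the mean and lines for the standard deviation over 3 mice. The SCI points lie above the sham points in all 5 genes, of which Thbs1 and Col4a2 passed the test. The 5 genes were taken for their small p values, so that their groups lie apart is a description only. Among all genes tested, 7.73% had every SCI library above every sham library.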

How the data were processed

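The authors deposited a table of raw, whole-number read counts per Ensembl gene for each library. Per the labels' design text, single-end reads of 50 bases from 1 µg of total RNA (Lexogen QuantSeq Forward kit) were aligned with STAR 2.7.2b to mm10 and the GRCm38 annotation of Ensembl 96, and the submitters' processing notes also name DESeq2 1.24.0. The counting tool, its strand setting, multiply mapped reads and molecular identifiers are not stated in the labels.

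Symbols were matched to 42462 of 43432 identifiers, and identifiers without one held 0.0884% of counts. Positions come from GENCODE M21 (GRCm38). Genes passed edgeR's filterByExpr (13560 of 21524 with a count), were scaled by TMM and compared, SCI over sham, by edgeR's robust quasi-likelihood F test in all 6 libraries (edgeR 4.0.16, limma 3.58.1, DESeq2 1.42.0, R 4.3.3), with Benjamini-Hochberg adjustment over all genes tested and calls under 0.05. Standard errors were taken as the log2 fold change over the root of F. The procedure was tested on simulated data. Alternatives were other scalings, filters and tests, a replicate block, a hepatocyte covariate and leaving out each library. The members and gene lists were chosen with earlier results of these data known. Values in every library were given for members with an unadjusted p under 0.05 or groups apart, those with few counts and a count ratio whose interval leaves out 1, and the most abundant chains; partner genes named were those called and the smallest p of each list. Values of 1 member with few counts are not reported here. Other genes named were chosen after their values were seen. The design text gives 3 mice a group; within groups, libraries varied beyond counting noise (chi-square per degree of freedom 6.97 to 38.0).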

Additional observations from a re-analysis of the deposited data

How the results depend on the processing

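None of the 14 alternatives run called an integrin or laminin gene, and the smallest edgeR adjusted p of any of them was 0.113, for Itga7 with the hepatocyte covariate. Recomputed log2 fold changes of the members kept their direction and their side of the threshold 316 times and changed sign 19 times. Partner genes called higher numbered 2, and 4 with no filter, 5 with the hepatocyte covariate and 0 to 3 when a library was left out (0 without SCI 1, SCI 3 or sham 1). With the replicate number as a block there were 0 members and 2 partner genes, and the genes called over the whole table numbered 81 higher and 1 lower, against 120 and 6. Deviations of same-numbered libraries from their group means had correlations of -0.18 to -0.07, and those of differently numbered SCI and sham libraries -0.07 to 0.13. With 3 libraries a group, these values cannot settle whether a number marks anything shared between the groups. Under the block Itgb8 had a log2 fold change of -0.0153. With the hepatocyte covariate Itgb8, Itgb1 and Lamb3 had -0.0575, 0.0733 and 0.30. Over fits that leave out a library, signs turned in these genes, with ranges of Itga1 -0.33 to 0.00169, Itga3 -0.34 to 0.0850, Itga6 -0.31 to 0.00755, Itgal -0.65 to 0.20, Itgam -0.0245 to 0.32, Itgb1 -0.24 to 0.13, Itgb3 -0.0130 to 1.21, Itgb8 -0.22 to 0.18, Lamb3 -0.75 to 0.57, Lamc1 -0.0412 to 0.28 (log2). Itgav, Itga7, Lama4 and Lama5 ranged over 0.43 to 0.58, 0.61 to 0.94, 0.46 to 0.67 and 1.53 to 2.03. The SCI minus sham difference of the hepatocyte sum, -10516 CPM, ran, with a library left out, from -22325 to 4972 CPM, the highest without sham 2, an alternative chosen after seeing the data. For these sign changes the cause was not tested. Depth limits the 14 members outside the test.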
